A study of Mus musculus with 6 samples.

Results

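Mitochondrial ribosomal protein genes were taken from the deposited expression table by their symbols, *Mrpl* or *Mrps* followed by a number. Of 20280 genes in the table, 77 met this rule, 48 with an *Mrpl* (large subunit) and 29 with an *Mrps* (small subunit) symbol. The mitochondrial ribosome, or mitoribosome, makes the few proteins that the mitochondrial genome encodes, all of them subunits of the respiratory chain or of ATP synthase. Its rRNAs are made inside the mitochondrion, whereas all of its proteins are encoded in the nucleus, translated in the cytosol and imported. Many have a counterpart in the bacterial ribosome, and others are found only in mitochondria.

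The RNA came from whole mouse embryos at embryonic day 8.5 on the inbred FVB/N background, 3 libraries from *Tip55*+/+ and 3 from *Tip55*Δ/Δ embryos. *Tip55* is a splice isoform of *Kat5*, a lysine acetyltransferase gene. The deletion allele lacks several introns of *Kat5*, with the exons beside them fused. Among these introns is the one of which a part encodes the C-terminus of TIP55. The study reports that neither the coding sequence nor the expression of the other *Kat5* isoforms was altered. The line was kept as heterozygotes and intercrossed, and it is not stated whether a library held 1 embryo or a pool. The deposited table has 1 comparison per gene from EBSeq, namely the posterior probability of differential expression (PPDE) and 2 linear ratios of *Tip55*Δ/Δ over *Tip55*+/+, and no value for a single library. Replicate spread can thus not be seen, and embryos could not be tested against each other. A gene is called lower or higher where its PPDE passed 0.95. Levels are mean normalized counts per library, recovered from the 2 ratios. The interval beside a ratio is the exact 95% binomial one (Clopper-Pearson), from both genotypes' counts added over their 3 libraries, and covers counting error only. Log2 fold changes are those of PostFC, the ratio that EBSeq draws toward 1.

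The recovered means of all genes summed to 49138051 in wildtype and 47211544 in knockout libraries, of which the 77 genes took 0.353% and 0.358%. *Kat5* itself had 2218 and 1615 normalized counts, respectively (ratio 0.728, interval 0.702 to 0.756), a value that sums all of its isoforms. It was called lower (PPDE 0.99999), and it shares 426 exonic bases with *Rnaseh2c*. Of the markers of other cell types, all 6 of primitive erythroid cells were lower past the PPDE threshold, with ratios from 0.0571 (*Hbb-y*) to 0.0992 (*Klf1*), all 4 of yolk sac and visceral endoderm had ratios from 0.435 to 0.641 without passing it, and the 6 of the embryo proper had ratios from 0.765 to 1.61, none past it. Of 4 decidua genes, *Prl8a2* was lower, from 503 to 27.6 normalized counts, *Dcn* had a ratio of 1.09 without passing it (191 and 208 normalized counts), and *Gzmf* and *Gzmg*, both under 30 normalized counts, were higher. The summed level of the markers went from 105233 to 7395 normalized counts for erythroid cells, from 62127 to 30896 for yolk sac and visceral endoderm, from 17344 to 20214 for the embryo proper and from 697 to 280 for decidua, the fall of the last being that of *Prl8a2* alone, and no marker was at 0. The part of these cell types in the values below was not tested, and in whole embryos fewer cells of a type and less RNA per cell cannot be told apart.

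Coding sequences are shown first because the differences described below went with their base composition. The stretches are the whole coding sequence of *Mrpl34*, the member with the lowest ratio, and as many bases from the start codon of *Mrps12*, the small subunit member with the lowest ratio, and of *Mrpl1*, the member with the highest. They are from GENCODE vM21 on GRCm38, and capitals mark each G or C at the last position of a codon, the position that most often varies without changing the amino acid.
*Mrpl34*: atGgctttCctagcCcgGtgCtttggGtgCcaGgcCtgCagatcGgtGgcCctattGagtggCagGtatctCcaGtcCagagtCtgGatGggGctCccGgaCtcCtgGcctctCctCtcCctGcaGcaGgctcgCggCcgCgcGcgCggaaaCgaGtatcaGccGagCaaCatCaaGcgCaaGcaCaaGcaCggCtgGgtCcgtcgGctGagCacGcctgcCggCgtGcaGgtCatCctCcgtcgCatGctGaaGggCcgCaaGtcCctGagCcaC
*Mrps12*: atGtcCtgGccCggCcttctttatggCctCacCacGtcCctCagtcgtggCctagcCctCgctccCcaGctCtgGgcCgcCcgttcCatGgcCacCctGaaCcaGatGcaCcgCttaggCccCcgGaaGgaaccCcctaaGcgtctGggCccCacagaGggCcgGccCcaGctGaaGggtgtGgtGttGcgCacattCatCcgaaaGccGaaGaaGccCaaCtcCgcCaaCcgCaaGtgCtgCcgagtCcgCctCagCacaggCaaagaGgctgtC
*Mrpl1*: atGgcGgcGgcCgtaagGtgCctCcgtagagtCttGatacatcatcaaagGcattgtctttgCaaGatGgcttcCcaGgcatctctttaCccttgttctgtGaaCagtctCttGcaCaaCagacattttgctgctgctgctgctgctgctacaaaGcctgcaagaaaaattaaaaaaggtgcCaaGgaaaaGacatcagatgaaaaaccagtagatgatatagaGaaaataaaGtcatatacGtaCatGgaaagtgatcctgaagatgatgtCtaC
Of the 92 codons shown in each, 77 end in G or C in *Mrpl34*, 72 in *Mrps12* and 33 in *Mrpl1*. Over the whole coding sequence the GC content was 65.6% in *Mrpl34*, 63.5% in *Mrps12* and 41.6% in *Mrpl1*. *Mrpl34* had the highest and *Mrpl1* the lowest value of the members, and *Mrps12* the fourth highest.

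All 77 genes were well measured, from 733 (*Mrpl33*) to 6143 (*Mrpl12*) normalized counts in *Tip55*+/+ embryos, and none lost its mean to rounding. Means of both genotypes were also taken per kilobase of the longest annotated protein coding transcript, which need not be the one expressed. By this measure *Mrpl42*, a large subunit protein particular to mitochondria, was highest at 7222 normalized counts per kilobase (666 bases). *Mrpl48*, another one, was lowest at 293 (4285 bases, of which 633 are coding), so the order depends on the annotated length. At the PPDE threshold, 15 of the 77 genes (19.5%) fell and 7 (9.09%) rose in *Tip55*Δ/Δ embryos. Over all 20280 genes, 7.11% were lower and 5.25% higher. To compare genes of like level, the share was also counted over the 6675 genes whose mean lay within the range of the members' means, where 12.0% were lower and 7.54% higher. The median log2 fold change of the 77 genes was −0.0083 (quartiles −0.17 and 0.11), against −0.031 over the genes of like level, and their summed level went from 173676 to 169145 normalized counts, a ratio of 0.974. None passed 2-fold, and 14 (18.2%) differed by more than 20% in PostFC, against 20.1% of the genes of like level.

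**Figure D1:**
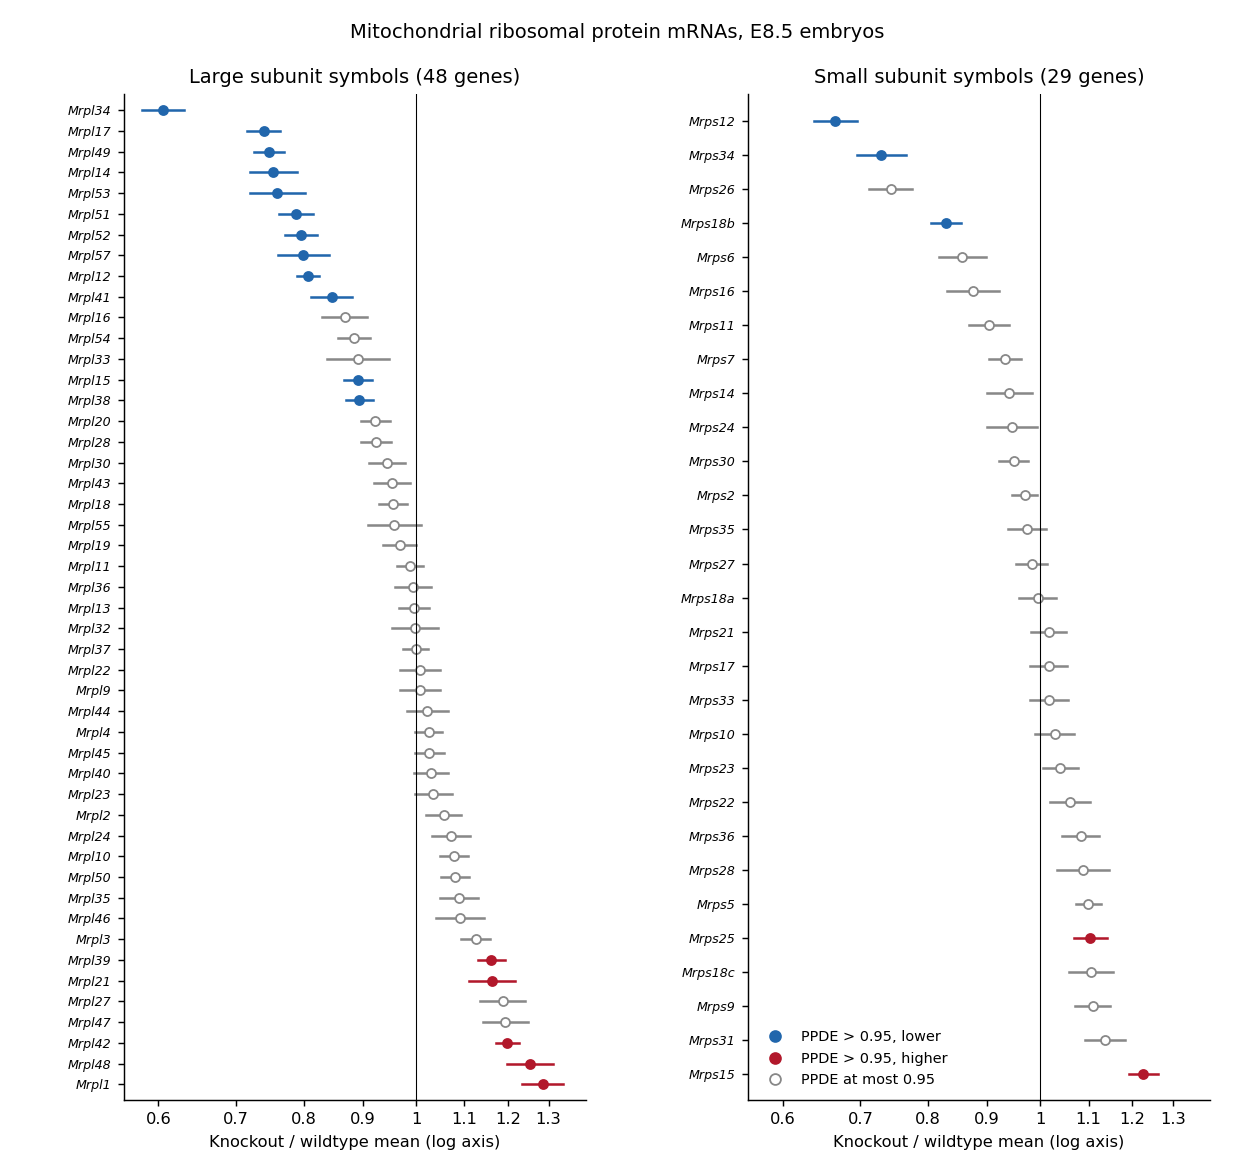
Ratio of the mean in *Tip55*Δ/Δ over the mean in *Tip55*+/+ embryos (log axis) for each *Mrpl* gene (left, 48 genes) and *Mrps* gene (right, 29 genes), with bars for the 95% counting interval. Filled points passed PPDE 0.95 (blue lower, 15 genes, red higher, 7 genes), and the points run from 0.606 for *Mrpl34* to 1.28 for *Mrpl1*.

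Among the large subunit genes, 12 of 48 fell (25%) and 5 rose (10.4%). Among the small subunit genes, 3 of 29 fell (10.3%) and 2 rose (6.90%). Over the genes of like level 12.0% were lower and 7.54% higher. The median log2 fold change was −0.0079 for large and −0.0083 for small subunit genes, a difference of 0.00040 that was not tested. The quartiles were −0.17 and 0.10 for the large and −0.10 and 0.12 for the small subunit. The summed level had a ratio of 0.967 over large and 0.987 over small subunit genes. Genes are not replicates of a condition, so the difference between the subunits in called genes has no test. The symbols do not always give the place of a protein. *Mrps30* and *Mrps18a* encode proteins of the large subunit, and the protein of *Mrps36* belongs to the 2-oxoglutarate dehydrogenase complex. None of these 3 was called. *Mrps30* had a ratio of 0.948 (interval 0.921 to 0.976), *Mrps18a* of 0.994 (interval 0.958 to 1.03) and *Mrps36* of 1.08 (interval 1.04 to 1.12). Of the 3 paralogs related to bacterial protein S18, *Mrps18b* alone passed the threshold, from 3164 to 2624 normalized counts (ratio 0.830, interval 0.805 to 0.855), while *Mrps18c* had a ratio of 1.11 (interval 1.06 to 1.15) and a PPDE of 0.787. These are 3 separate values, and whether the paralogs differ from each other was not tested.

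Large subunit genes with a bacterial counterpart gave the largest fall of all. *Mrpl34* (chromosome 8, 71464959 to 71465747 of GRCm38, plus strand) encodes a small basic protein of the subunit's core and fell from 1964 normalized counts to 1190 (ratio 0.606, interval 0.581 to 0.632). *Mrpl17* fell from 2935 to 2170 (ratio 0.739, interval 0.716 to 0.763), and *Mrpl14*, whose protein lies at the face turned to the small subunit, from 1381 to 1041 (ratio 0.754, interval 0.719 to 0.790). *Mrpl12* encodes the stalk protein that recruits translation factors and had the most counts of the 77 genes. It fell from 6143 to 4962 normalized counts (ratio 0.808, interval 0.790 to 0.825). The fifth, *Mrpl15*, had the smallest change of this group, from 3418 to 3047 (ratio 0.891, interval 0.867 to 0.917). In the other direction, *Mrpl1* (chromosome 5, 96209493 to 96266727, plus strand), which encodes the protein of the mobile stalk at the tRNA exit site, rose from 1393 to 1790 (ratio 1.28, interval 1.23 to 1.34) and *Mrpl21* from 1144 to 1330 (ratio 1.16, interval 1.11 to 1.22). In all, 5 of the 30 genes of this group fell (16.7%) and 2 rose (6.67%). Of the genes of like level, 12.0% were lower and 7.54% higher.

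Of the 18 large subunit genes particular to mitochondria, 7 fell and 3 rose, beside the 12.0% lower and 7.54% higher of the genes of like level. Their median absolute log2 fold change was 0.20, against 0.11 for those with a bacterial counterpart, and the difference between these groups was not tested. *Mrpl49* fell from 3569 to 2666 normalized counts (ratio 0.747, interval 0.726 to 0.769). *Mrpl53*, a protein near the base of the stalk, fell from 989 to 752 (ratio 0.760, interval 0.719 to 0.803). *Mrpl51* and *Mrpl52* followed with ratios of 0.788 and 0.797, then *Mrpl57* with 0.800 and *Mrpl41* with 0.846. *Mrpl38*, a protein of the central protuberance, fell least, from 3718 to 3322 (ratio 0.893, interval 0.869 to 0.918). The rises were those of *Mrpl48*, also of the central protuberance, from 1114 to 1395 (ratio 1.25, interval 1.20 to 1.31), of *Mrpl42*, from 4377 to 5244 (ratio 1.20, interval 1.17 to 1.23), and of *Mrpl39*, from 3340 to 3875 (ratio 1.16, interval 1.13 to 1.19).

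In the small subunit, *Mrps12* (chromosome 7, 28739641 to 28741820, minus strand), whose protein lies at the decoding centre, fell from 1799 to 1198 normalized counts (ratio 0.666, interval 0.638 to 0.695). It was 1 of 2 small subunit genes with a bacterial counterpart to pass the threshold, out of 16. The other was *Mrps15*, which rose from 2776 to 3404 (ratio 1.23, interval 1.19 to 1.26). Of the genes of like level, 12.0% were lower and 7.54% higher. Of the 13 other *Mrps* genes, which include *Mrps30*, *Mrps36*, *Mrps18a* and *Mrps18b*, *Mrps34*, needed for a stable small subunit, fell from 1278 to 932 (ratio 0.730, interval 0.695 to 0.766), as did *Mrps18b*, and *Mrps25* rose from 2279 to 2515 (ratio 1.10, interval 1.07 to 1.14). *Mrps26* had a ratio as low as that of *Mrpl17*, 0.743 (interval 0.713 to 0.775), from 1708 to 1270 normalized counts, but a PPDE of 0.754.

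The PPDE did not follow the size of the change alone, since EBSeq also weighs the spread between libraries, which the table does not show. The counting interval excluded 1 for 56 of the 77 genes (32 below, 24 above), against 81.4% of the genes of like level, and 34 of these 56 had not passed the PPDE threshold. *Mrpl27* had the sixth highest ratio, from 1227 to 1457 (ratio 1.19, interval 1.14 to 1.24), with a PPDE of 0.000441, and *Mrpl47*, with a ratio of 1.19 (interval 1.14 to 1.25), had a PPDE of 0.861. Just inside the threshold lay *Mrpl39* at a PPDE of 0.978 and just outside *Mrps11* at 0.889. For 7 genes the PPDE was under 1e-06, among them *Mrps6* at a ratio of 0.857 (interval 0.818 to 0.897) and *Mrpl33* at 0.890 (interval 0.837 to 0.947).

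The direction of the differences went with the base composition of the members' coding sequences, and less with that of their longest transcripts. Spearman's rho between the log2 fold change and the GC content of the coding sequence was −0.54 over the 77 genes, −0.49 over large and −0.65 over small subunit genes. Over the 6574 genes of like level with an annotated coding sequence it was −0.47. The points share the same 6 libraries and the same normalization, and genes are not independent replicates, so these are descriptions without a p. The GC content of the longest transcript of any kind had been planned as the main measure. With it, rho was −0.26 over the members (−0.18 large, −0.38 small), weaker than the −0.45 over the genes of like level. The splits and remainders below use the coding sequence only. For 23 members that longest transcript is not a protein coding one. Both the first and second codon positions (rho −0.51) and the last position (rho −0.43) showed it. In the same order, rho was −0.37 and −0.47 over large and −0.74 and −0.36 over small subunit genes. Over the genes of like level it was −0.39 and −0.40. The genes at either end of the scale by longest transcript held calls of the same direction. Of the 3 with the highest GC content, *Mrps34* (59.9%) and *Mrpl38* (59.6%) fell and *Mrpl54* (60.4%) had a ratio of 0.884 without passing the threshold, and of the 3 with the lowest, *Mrpl15* (40.0%) fell while *Mrps9* (38.6%) had a ratio of 1.11 and *Mrps14* (39.6%) of 0.940, neither past it.

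**Figure D2:**
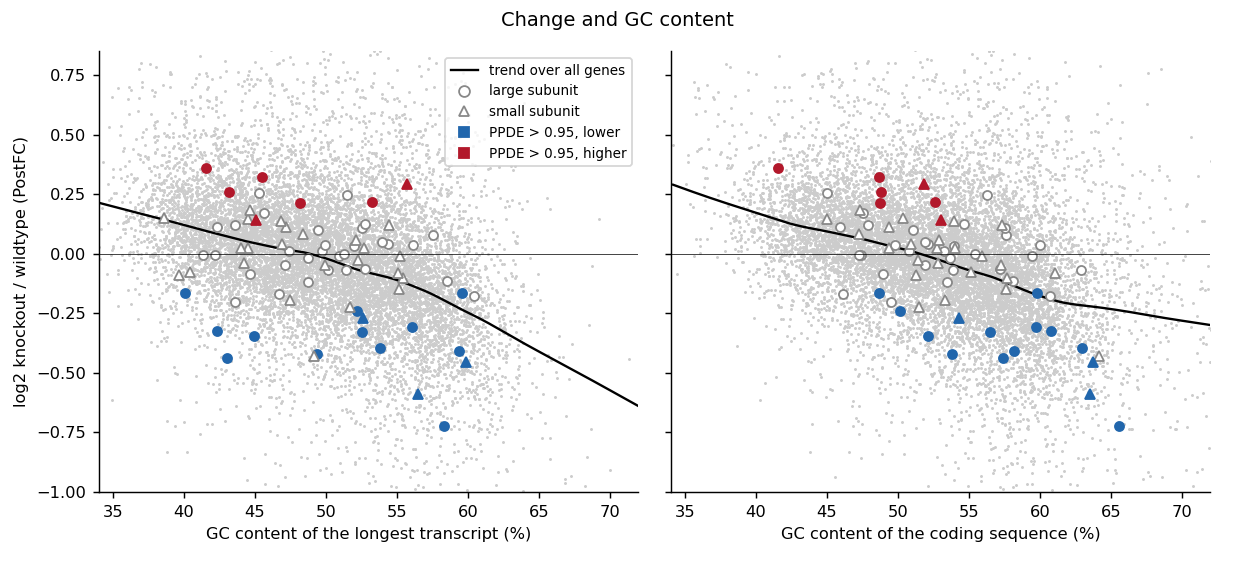
Log2 fold change (PostFC) against the GC content in percent of the longest transcript (left) and of the coding sequence (right) for large (circles) and small (triangles) subunit genes, coloured where PPDE passed 0.95, over all genes whose mean reached 100 (grey) and their smooth trend (line). On the right, all 9 members over 60% GC lie below 0, where the trend of all genes also lies. There rho was −0.54 over members and −0.47 over the genes of like level.

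By coding sequence, the 15 genes that fell had a median GC content of 58.2%, the 55 that were not called 52.9% and the 7 that rose 48.8%. All 9 members over 60% lay below 0, and 5 of them fell. Of the 20 members under 50%, 14 lay above 0, 4 rose and 1, *Mrpl15*, fell. The shares of the genes of like level beyond these 2 limits are not given here, and such genes showed the same trend. With the members split in 3 by coding GC content, 10 of the 25 highest fell and none rose, where 22.5% and 3.13% of the genes of like level in that GC range were called. In the middle set, 3 of 26 fell and 3 rose, against 11.4% and 7.65%. In the lowest set, 2 of 26 fell and 4 rose, against 4.16% and 10.6%. The median log2 fold changes of these 3 sets, −0.15, −0.0051 and 0.092 from highest to lowest GC content, lay beside −0.17, −0.049 and 0.064 for all genes of like level and GC content, the members included.

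**Figure D3:**
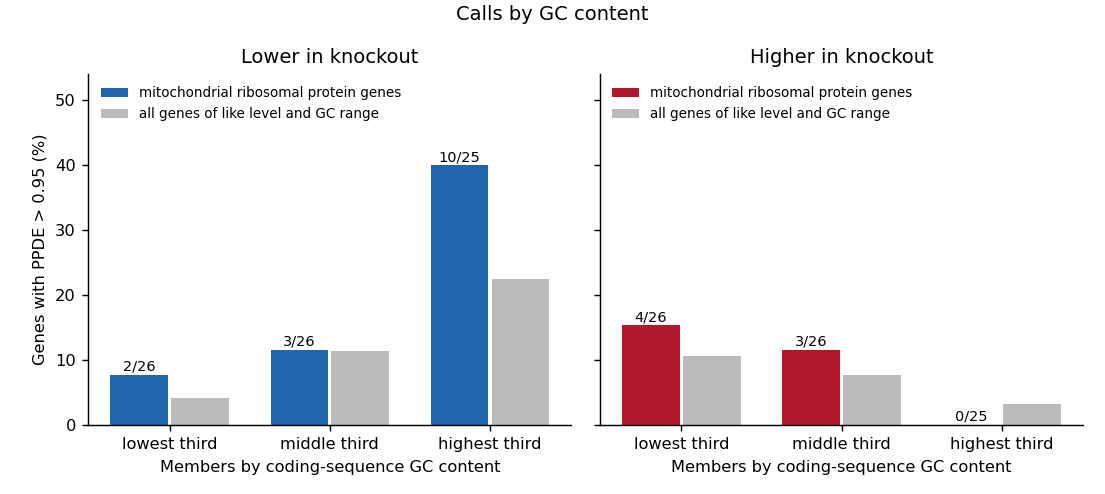
Percent of genes past PPDE 0.95 that were lower (left) or higher (right) in *Tip55*Δ/Δ embryos, for the members in 3 parts by coding GC content (colour, with counts) and for all genes of like level within the same GC range (grey). In the set of highest GC content, 10 of 25 members were lower, against 22.5% of the other set.

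Subtracting the trend of all genes on coding GC content moved the median of the members from −0.0083 to 0.024. The 15 genes that fell had a median log2 value of −0.13 on the trend itself and lay a median of 0.23 below it, 14 of them under the curve, *Mrpl38* being the exception. For *Mrpl34*, the trend at its GC content was −0.24 and the remainder −0.49. The remainder was −0.38 for *Mrpl49*, −0.37 for *Mrps12* and −0.33 for *Mrpl51*. The 7 genes that rose were all above the curve, by a median of 0.22. Since the calls were made on the same values, these remainders describe the called genes and are no test of them.

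The log2 fold change was also set against the length of the coding sequence. Spearman's rho between the log2 fold change and coding length was 0.37 over the members, 0.50 over large and 0.17 over small subunit genes, and −0.013 over the genes of like level. The difference between the subunits was not tested. Of the 26 members with the shortest coding sequences (195 to 480 bases), 8 fell and 1 rose, where 15.7% and 10.1% of the genes of like level in that length range were called. Of the 25 longest (762 to 1326 bases), 3 fell and 3 rose, against 12.3% and 8.5%. With the GC trend removed rho was 0.35. Between the log2 fold change and mRNA length, untranslated parts included, rho was 0.16, and 0.072 with the GC trend removed. The median coding length was 576 bases in the members and 1449 bases in the genes of like level.

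The 77 genes lie on 17 chromosomes. On chromosome 19, which carries *Kat5*, there are 5 members. By the lower coordinate of each gene, *Mrpl49*, which fell (ratio 0.747), lies 0.451 megabases after *Kat5*, and *Mrpl21*, which rose (ratio 1.16), 2.32 megabases before it. The others were not called, namely *Mrpl11*, 0.641 megabases before it (ratio 0.988, interval 0.964 to 1.01), *Mrpl16*, 6.17 megabases after it (ratio 0.868, interval 0.830 to 0.908), and *Mrpl43*, 39.4 megabases after it (ratio 0.953, interval 0.920 to 0.988). The libraries do not part the strands, and 32 of the 77 genes share exonic bases with another annotated gene, 10 of the 22 called ones among them. The longest shared stretches in called genes were 4590 bases of *Mrps25* with *Nr2c2*, 1309 of *Mrps34* with *Mapk8ip3*, 708 of *Mrpl48* with *Rab6a*, 695 of *Mrpl53* with *Gm42688* and 638 of *Mrps18b* with *Gm16279*, and their values can hold reads of the partner. Of the 45 genes that share none, 8 fell and 4 rose, *Mrpl34*, *Mrps12* and *Mrpl1* among them. Sharing or not, 12.0% of the genes of like level were lower and 7.54% higher. How many of those share exonic bases is not given here.

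Some of these genes start close to a gene on the other strand that runs the opposite way. With a limit of 1000 bases between the annotated starts, 32 of the 77 had such a divergent neighbour, and 1 pair, *Mrps11* and *Mrpl46*, was made of 2 members, neither of them called. Over the members with a neighbour, both values lay on the same side of 0 in 17 and on opposite sides in 15. The pair of 2 members is counted from each side, both times among the opposite ones. The same counts, and that of pairs with both genes called, are not given here for other genes. In 4 pairs both genes passed the threshold. *Mrpl49* fell beside *Fau* (from 22946 to 15365 normalized counts), a cytosolic ribosomal protein gene whose log2 fold change was −0.58, *Mrpl51* beside *Ncapd2*, a condensin gene at −0.30, and *Mrpl14* beside *Tmem63b* at −0.44. *Mrpl14* and *Tmem63b* share 106 exonic bases, so the value of each can hold reads of the other. *Mrps12* fell while *Sars2*, the mitochondrial seryl-tRNA synthetase whose annotated start lies 172 bases away, rose from 1844 to 2128 (log2 fold change 0.21). The coding GC content of *Sars2*, 61.1%, is close to the 63.5% of *Mrps12*.

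Promoter sequences of RefSeq (GRCm38.p6, 250 bases before to 50 after the start) were found for 68 of the 77 genes. Sites for the factors NRF1 and GABPA, an ETS factor, are known from promoters of nuclear genes for mitochondrial proteins. The ETS letters CCGGAAG, searched on both strands, were in 25 of the 68 (36.8%), against 23.5% of the 5305 genes of like level with a promoter in the table and 9.93% of all 27025 genes there. They were in 8 of the 12 promoters of genes that fell, 2 of the 7 of genes that rose and 15 of the 49 of the others. This split by call was not counted over other genes, and whether the letters go with the direction was not tested. The letters are rich in G and C, as are the coding sequences of the genes that fell. The NRF1 core GCATGCGC was in 8 of the 68 (11.8%), against 6.77% of the genes of like level and 3.05% of all. The YY1 core ATGGCGGC was in 12 (17.6%, against 6.64% and 2.61%), the CCAAT box CCAAT in 27 (39.7%, against 43.2% and 41.1%) and the E-box CACGTG in 5 (7.35%, against 12.1% and 8.09%). None of these 5 motifs contains another, and a match in the letters is a description, not a binding site. The stretches below are those of called genes in which the ETS letters lay before the RefSeq start with at least 11 bases on either side in the table. Each is written along the strand of the gene, with the motif, or its reverse complement, in capitals.
*Mrpl34*, lower: aactacagctcCCGGAAGgccccgcggca
*Mrpl17*, lower: gcatgctccgcCCGGAAGgcgcctcctcc
*Mrpl53*, lower: ccgcggagccgCCGGAAGcggtccgttcc
*Mrpl51*, lower: caggggctaaaCCGGAAGtatttgactgg
*Mrpl52*, lower: caagatgtcggCTTCCGGttttcccggca
*Mrpl48*, higher: ggttttaaaaaCTTCCGGaaccaagatgc
They are at chr8:71464878-71464906, chr7:105811307-105811335 (minus strand), chr6:83109038-83109066, chr6:125192099-125192127, chr14:54426851-54426879 and chr7:100583147-100583175 (minus strand) of GRCm38.p6. The RefSeq starts differ from the GENCODE gene coordinates used elsewhere, and the stretches of *Mrpl53*, *Mrpl51* and *Mrpl48* lie inside the GENCODE gene, that of *Mrpl53* in part. The motif begins from 34 (*Mrpl48*) to 237 bases (*Mrpl17*) before the RefSeq start, and it was present in genes that moved either way.

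Other genes of mitochondrial translation were counted from lists of their known roles. Of 5 listed mitoribosomal proteins whose symbols do not begin with *Mrp*, none was called, and their ratios ran from 0.881 for *Gadd45gip1* (interval 0.849 to 0.914) and 0.924 for *Dap3*, a GTP-binding protein of the small subunit, through 0.969 for *Aurkaip1* and 1.05 for *Ptcd3* to 1.08 for *Chchd1*. Of 15 translation factors listed, 14 were in the table, of which 3 fell and 2 rose, with a median log2 fold change of 0.12. *Ict1*, now named *Mrpl58* and itself a protein of the large subunit, was kept in this list (ratio 1.08, PPDE 0.118). *Tufm*, the elongation factor that brings tRNAs to the ribosome, fell from 8006 to 7337 normalized counts (ratio 0.916, interval 0.8996 to 0.9332), its exchange factor *Tsfm* had a ratio of 0.830 (interval 0.784 to 0.877), and *Oxa1l*, which inserts the new proteins into the inner membrane, one of 0.919 (interval 0.898 to 0.941). *Guf1*, a GTPase related to bacterial LepA, rose from 1486 to 1976 (ratio 1.33, interval 1.28 to 1.38), and *Mtrf1*, a release factor, from 293 to 391 (ratio 1.33, interval 1.22 to 1.46). None of 20 aminoacyl-tRNA synthetase and amidotransferase genes fell and 4 rose, *Wars2* (ratio 1.27), *Gatc* (1.18), *Sars2* (1.15) and *Iars2* (1.09). Of 26 genes for assembly and rRNA modification none fell and 3 rose, *Ybey* (ratio 1.24), *Mterf3* (1.16) and *Eral1* (1.11), and of 10 for mitochondrial transcription and mRNA stability *Slirp* fell (ratio 0.870, interval 0.833 to 0.908). Over these 70 genes 4 fell (5.71%) and 9 rose (12.9%). Of all genes 7.11% were lower and 5.25% higher, and of the genes at the members' level 12.0% and 7.54%. The levels of the 70 genes ran from 181 to 7983 normalized counts, with a median of 1092, so some lie outside the members' range. The median log2 fold change of the 70 genes was 0.046, beside −0.0083 for the 77 members. Their median coding GC content was 53.7%, close to the 53.2% of the members, and whether the 2 sets differ was not tested.

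**Figure D4:**
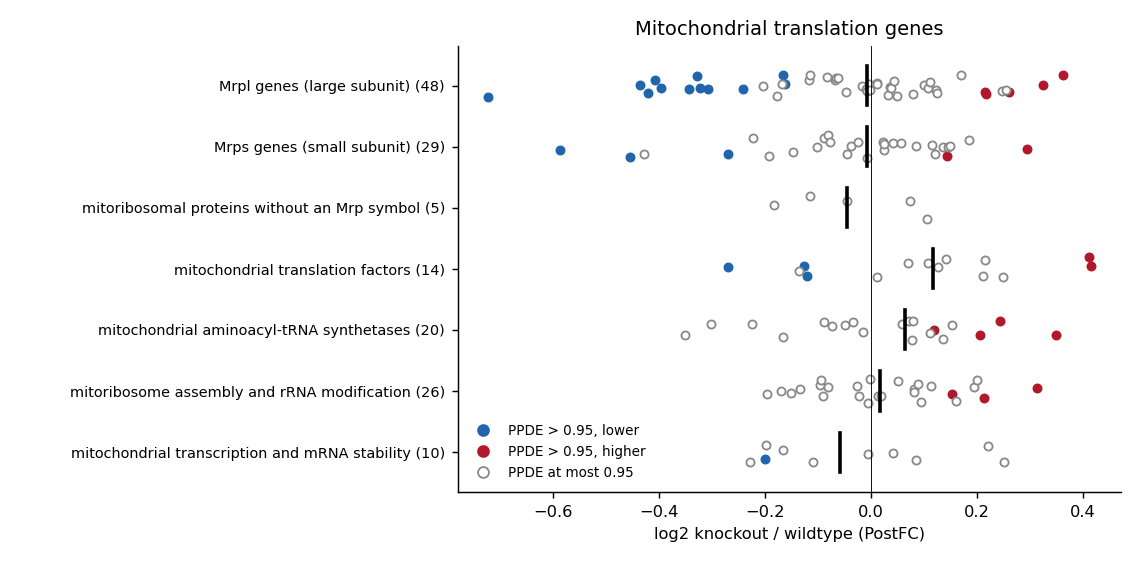
Log2 fold change (PostFC) of each gene, *Tip55*Δ/Δ over *Tip55*+/+, in the 2 subunits and in 5 other lists of mitochondrial translation genes, with list sizes in brackets, a bar at each median and filled points past PPDE 0.95. Of the members 15 were lower and 7 higher, and of the 4 lists of translation factors, synthetases, assembly and transcription genes 4 were lower and 9 higher.

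The genes of the cytosolic ribosome and of the respiratory chain were set beside the members. Of 85 cytosolic ribosomal protein genes, 34 fell (40%) and none rose, with a median log2 fold change of −0.18 and a summed ratio of 0.892. Of 91 nuclear genes for the respiratory chain and ATP synthase, 17 fell (18.7%) and 7 rose (7.69%), with a median of −0.079 and a summed ratio of 0.939. Over all genes 7.11% were lower and 5.25% higher, and over the genes at the members' level 12.0% and 7.54%. The share at the level of the members does not apply to the cytosolic list, whose median level was 33671 normalized counts. The members' sum, with a ratio of 0.974, lay nearer to 1 than both. The differences between these lists were not tested.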

How the data were processed

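Per the labels and the study's methods, mRNA was enriched from whole E8.5 embryos, sequenced in the BGI-seq format without strand, mapped to mm10 and quantified with RSEM, and the authors compared the genotypes with EBSeq. The deposited file gives PPDE as a fraction from 0 to 1, and PostFC and RealFC as linear ratios, for 1 comparison of 20280 genes. It holds no library's values, so the depth and spread of single libraries are unknown and no test across embryos could be made. These columns are the authors' own comparison, and the calls at PPDE above 0.95 are theirs. RealFC adds 0.01 to both means, and PostFC an offset, estimated here as 0.514 from genes at 0 in 1 genotype. Both means were solved from the pair. The steps were tested on simulated data whose ratios were built with these same formulas. That test cannot show whether the deposited ratios follow them. No mean was given for 8 genes whose rounding error exceeded 5%, and none of them is a member. RSEM divides reads that fit several transcripts, such as those of pseudogene copies, by its own model.

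Coordinates, lengths, GC content and shared exonic bases are from GENCODE vM21 (GRCm38, the build mm10), which matched 19996 of the 20280 symbols and all 77 members. Trends on GC content were lowess curves with a span of 0.3 over genes whose mean reached 100 (12012 genes for the coding sequence). Python 3.11.15, scipy 1.17.1 and statsmodels 0.14.6 were used. Intervals and floors (3 counts) cover counting error only. Named genes were the members past the threshold, the 6 largest falls and rises, the 3 highest and lowest in transcript GC content, the highest and lowest level per kilobase, those beside the threshold, members whose symbol and place differ with the *Mrps18* paralogs, 5 listed mitoribosomal proteins without an *Mrp* symbol and *Kat5*. Further members and partners named for coding GC content, shared bases, a low PPDE or a divergent start, and the genes named in the pathway lists, were chosen after their values were seen. The members and all lists were chosen with earlier results of these data known. Cytosolic ribosomal protein genes were taken by symbol, without 11 symbols of S6 kinases and of a binding protein.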

Additional observations from a re-analysis of the deposited data

How the results depend on the processing

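Without the members that share exonic bases with another gene, 8 in place of 15 members were lower and 4 in place of 7 higher, over 45 in place of 77 genes. With the GC content of the coding sequence in place of the longest transcript, Spearman's rho over the members was −0.54 in place of −0.26. Chosen after seeing the data, the coding sequence without members that share exonic bases gave −0.53, leaving out each member in turn from −0.57 to −0.52, and the longest protein coding transcript −0.30. The PPDE thresholds of 0.99 and 0.9 gave 15 lower members each, and 6 and 7 higher ones. Over the alternatives run, the median log2 fold change ran from −0.018 to 0.025 for the members, from −0.018 to 0.028 for the large and from −0.018 to 0.029 for the small subunit genes, and the difference of the subunit medians (0.00040) from −0.015 to 0.0091, so the sign of each depends on the setting. No paired analysis was possible because the deposited table holds no values per library, and for the same reason no library could be left out. The depth of single libraries is not known.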

Other observations

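Some values fell outside the comparisons above. *Mrps26* had the second highest coding GC content of the members (64.2%) and a ratio of 0.743, yet a PPDE of 0.754. *Mrpl43*, at 62.9% coding GC content, had a ratio of 0.953 (interval 0.920 to 0.988) and shares 507 exonic bases with *Twnk*, which the table lists as *Peo1* at a log2 fold change of −0.11. *Mrpl4*, at 59.98%, lay 0.21 above the GC trend in log2. A PPDE under 1e-06 was found in 7 of the 77 members, against 3.69% of the genes of like level and 25.1% of all genes. *Mrpl36* was not called (ratio 0.994, interval 0.958 to 1.03), while its divergent neighbour *Ndufs6*, a complex I gene with which it shares 30 exonic bases, rose at a log2 fold change of 0.23. *Mrpl54* (ratio 0.884) was not called either, while its neighbour *Apba3* fell at −0.57.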
